A study of Mus musculus with 16 samples.

Results

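The genes described here make cholesterol, sense it and move it through the cell, together with a few genes that make and desaturate fatty acids. A list of 36 genes was read across mouse embryonic stem cells (ES cells) and the endoderm and mesoderm populations sorted from them. Of the 36, 33 were measured by a probe set that names that gene alone, among 19938 genes measured in that way on the array. The expression of Acat2, Nr1h2 and Soat1 was not analysed here. The members fall into 6 enzymes of the mevalonate steps (of 7 listed), 11 enzymes from squalene to cholesterol, 5 sterol sensors and regulators, 5 genes of sterol transport and efflux (of 7 listed), and 6 genes of fatty acid synthesis and desaturation.

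Total RNA of 16 samples was hybridised to Mouse Gene ST arrays of Affymetrix, in 8 groups of 2 biological replicates. The sources used here do not say which CD24 fractions of a day were sorted from the same culture. All cells came from a single reporter line, TGFP/+; Foxa2tagRFP/+ (E14.1, 129/Ola, in the labels, but given as G4 cells in the study's methods), in which green and red fluorescent proteins report Brachyury (T) and Foxa2. ES cells (day 0) were grown on mouse embryonic fibroblast feeders in medium with fetal calf serum and leukaemia inhibitory factor, and were not sorted. Differentiation took place on Wnt3a-expressing feeders in a defined medium that contained AlbuMAX (a lipid-rich albumin), insulin and transferrin. Endoderm cultures received 12 ng/ml activin A. Mesoderm cultures received activin A at 3 ng/ml together with Bmp4 at 7.5 ng/ml. These were added to the endoderm medium, and whether the lower activin A dose replaced the endoderm dose or came on top of it is not stated. Sorting took Foxa2+/T- cells that were CD24 low or CD24 high on days 2 and 4 (the Foxa2+ groups), and Foxa2-/T+ cells that were CD24 low on days 2 and 4 or CD24 negative on day 4 (the T+ groups). A comparison with ES cells therefore changes the medium, the feeders, the sort and the differentiation together, and these cannot be told apart. All such comparisons also share the same 2 ES arrays.

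Cholesterol synthesis starts from acetyl-CoA, runs through mevalonate and isoprenoid intermediates to squalene, and then through lanosterol to cholesterol. When sterols run low in the endoplasmic reticulum, the escort protein SCAP brings the membrane-bound factor SREBP-2 to the Golgi, where it is cut free to switch on nearly every enzyme of the route. INSIG proteins hold the complex back when sterols are plentiful. Excess cholesterol is instead turned into oxysterols, ligands of the liver X receptors, which switch on the efflux pumps ABCA1 and ABCG1. Cholesterol that arrives in lipoproteins leaves the lysosome through NPC2 and NPC1.

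Promoter sequence of the members was taken from RefSeq (GRCm38.p6), as 250 bases before to 50 bases after each gene's start. It was found for 28 of the 36 listed genes and 15 of the 18 listed enzymes. The 28 include Acat2 and Soat1, whose expression was not analysed, and Acat2 is among the 15 enzymes. SREBP factors bind sterol regulatory elements next to sites of the general factors NF-Y (CCAAT) and Sp1 (GGGCGG), so these letters were searched on both strands. CCAAT was present in 22 of 28 members and 14 of 15 enzymes, against 41.1% of all 27025 promoters of that length. GGGCGG was present in 24 of 28 members and 14 of 15 enzymes, against 38.2% of all promoters. Among the 14680 genes of the array with a window, the shares were 41.8% and 56%. The sterol element TCACNCCAC was found only in Hmgcs1, against 1.44% of all promoters and 1.42% of the array genes with a window. The E-box palindrome CACGTG, which SREBP factors also bind, was found in 6 of 28 members and 3 of 15 enzymes. Its share was 8.09% of all promoters and 9.91% of the array genes with a window. These matches are descriptions of the letters in this window. The sites below are those of the members on which the comparisons turn most, namely the enzyme that carries the sterol element, the 4 enzymes that passed both the fold and the adjusted p threshold against ES cells in all 7 sorted groups, and the efflux pump that did so in the lower direction. Each is 30 bases, read in the direction of the gene, with the motif in capitals (CCAAT read from the other strand appears as ATTGG).
Hmgcs1 (chr13:119690204-119690233, + strand): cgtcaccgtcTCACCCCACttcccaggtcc
Lss (chr10:76531531-76531560, + strand): ggtgatgctctgATTGGccgagctcgcatc
Msmo1 (chr8:64733616-64733645, - strand): gagtggggcggaCCAATtacgacaggcgag
Nsdhl (chrX:72918489-72918518, + strand): aagactagcctcATTGGgcaaaatcatgct
Ebp (chrX:8193550-8193579, - strand): atccctgtactgATTGGttcgtcagattcg
Abca1 (chr4:53160025-53160054, - strand): gggccatgtctcCACGTGctttctgctgag
In these 30-base stretches the motif began at base -137 from the start in Hmgcs1, -62 in Lss, -55 in Msmo1 and Ebp, -20 in Nsdhl and -147 in Abca1.

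Before the members were read, each group was checked against marker genes. Summed signals (linear scale) of 8 endoderm markers lay between 27225 and 33572 in the CD24-high Foxa2+ arrays and between 1251 and 9790 in all others. Those of 8 mesoderm markers lay between 4060 and 19058 in the T+ arrays and between 1268 and 2630 in all others, and 8 pluripotency markers were highest in ES cells (27878 to 35113). The sum of each set was highest in the groups whose label it fits, and the CD24-low groups kept more pluripotency signal than the CD24-high groups of the same day. Foxa2, whose reporter was used for the sort, is 1 of the 8 endoderm markers, so its part in this check was set by the gate. Of the 8 pluripotency markers, 7 were lower and 1 higher (1.80, log2) past both thresholds in T+ CD24-negative cells against ES. Of all probe sets 5.67% passed in either direction. Array medians lay between 7.42 and 7.49 on the log2 scale, and replicate arrays correlated at 0.987 to 0.994 over all probe sets. ES arrays also carried signal of fibroblasts, the cells they were grown on: the sum over 15 of 16 fibroblast markers was 21267 and 16302 in the ES arrays and 1980 to 4359 in the sorted arrays. Of the 13 of these markers that were tested, 8 to 11 were lower than ES past both thresholds in each sorted group. Of all 32000 probe sets, 789 to 1661 were. Examples are Postn (-5.03) and Dcn (-4.66, log2) in CD24-high Foxa2+ cells of day 4. In RNA of whole populations, fewer cells of a type and less RNA per cell cannot be told apart.

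Enzymes of cholesterol synthesis were higher in every sorted population than in ES cells. In all 14 sorted arrays 16 of the 17 measured enzymes lay above both ES arrays, the exception being Idi1. The mean log2 value over the 17 enzymes was 10.24 and 10.13 in the ES arrays. It was 0.79 to 1.25 higher than the ES mean in the sorted arrays, lowest in the T+ CD24-low arrays of day 2 (0.80 and 0.79) and highest in the CD24-high Foxa2+ arrays of day 4 (1.24 and 1.25). Over all 33 members, 23 lay above both ES arrays in every sorted array and 1, Abca1, lay below. The share of all 32000 probe sets tested that did so was 8.34% above and 7.68% below. The ES array with the larger fibroblast sum (replicate 1) had the higher mean of the enzymes and the lower Abca1, and the part of feeder cells in these differences was not tested.

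**Figure D1:**
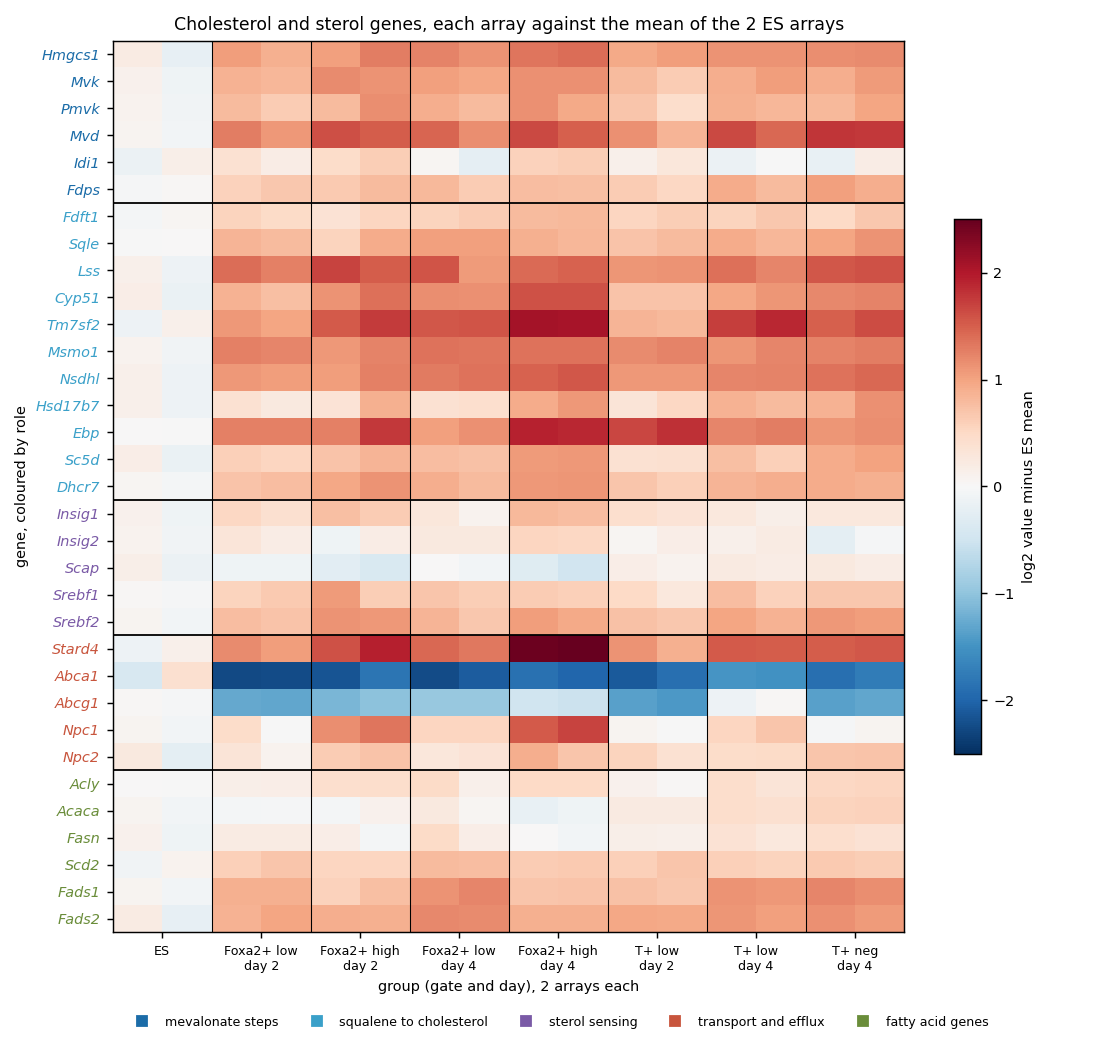
Heat map of the 33 measured genes (rows, coloured by role) in the 16 arrays (columns, 2 per group), as the log2 value minus the mean of the 2 ES arrays. The rows of 16 of the 17 synthesis enzymes are red in all sorted arrays, Idi1 is mixed, Abca1 is blue in all of them, and Abcg1 is close to 0 only in the T+ CD24-low arrays of day 4.

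**Figure D2:**
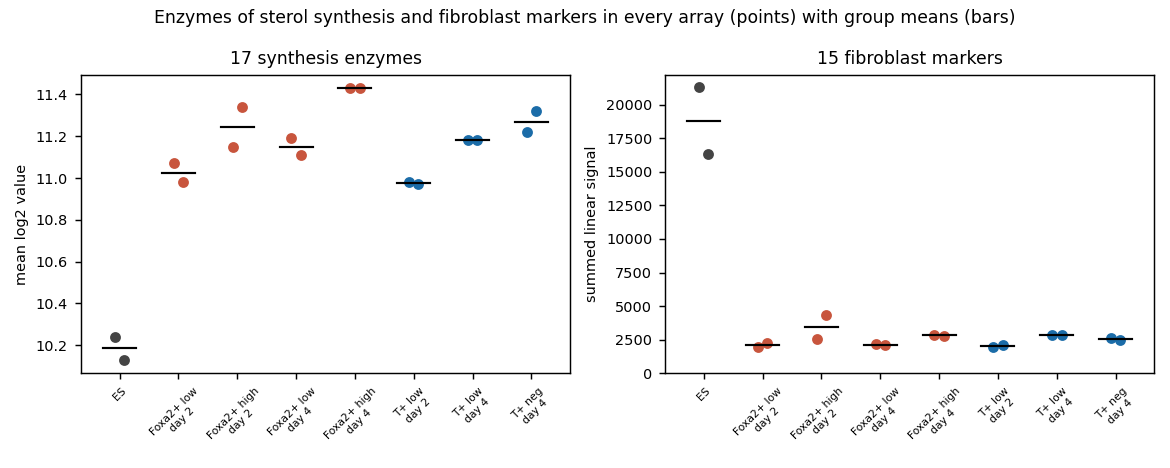
Mean log2 value of the 17 synthesis enzymes (left) and summed linear signal of 15 fibroblast markers (right) in every array, with group means as bars. The enzymes are lower, and the fibroblast markers higher, in the 2 ES arrays (16302 and 21267) than in any sorted array.

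For each comparison limma gave a log2 fold change with its 95% interval, and a gene was called where the change exceeded 1 in size with an adjusted p below 0.05. An F-test over the 8 groups, at the adjusted p, separated 32 of 33 members, against 36.2% of all probe sets. The exception was Fasn (adjusted p = 0.0682). In CD24-low Foxa2+ cells of day 2, 9 members were called against ES (7 higher and 2 lower), where 3.64% of all probe sets were called. In CD24-high Foxa2+ cells of day 2 the count was 15 (13 higher and 2 lower), against 6.65%. On day 4, CD24-low Foxa2+ cells had 13 called members (12 higher and 1 lower), against 4.51%. Their CD24-high counterparts had 16 (15 higher and 1 lower), against 8.76%. In T+ CD24-low cells the count was 7 on day 2 (5 higher and 2 lower), against 4.10%, and 12 on day 4 (11 higher and 1 lower), against 5.46%. T+ CD24-negative cells of day 4 had 16 (14 higher and 2 lower), against 5.67%. In each of these groups the share of members called was several times the background, and most of the members called were higher. The list was chosen with earlier results of these data known. This excess therefore describes the chosen genes and is not a test of the pathway, as with the other shares of members against ES. The counts over the 17 enzymes, in the same order of groups, were 6, 10, 9, 13, 4, 8 and 10, all of them higher.

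The number of enzymes past both thresholds depends on the fold threshold, since most changes lay near 1. At the adjusted p alone, 15 of the 17 enzymes were higher than ES in CD24-low Foxa2+ cells of day 2 and also of day 4, where 7.41% and 9.44% of all probe sets were. All 17 were higher in CD24-high Foxa2+ cells of day 2 (12.1% of all probe sets) and of day 4 (14.6%). In T+ CD24-low cells 15 were higher on day 2 (7.52%) and 16 on day 4 (10.2%), and in T+ CD24-negative cells 16 were (10.4%). The median log2 change of the 17 enzymes ranged from 0.72 in T+ CD24-low cells of day 2 to 1.15 in CD24-high Foxa2+ cells of day 2, while the median over all probe sets was between 0.04 and 0.07.

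The 5 members called higher than ES in all 7 sorted groups were Lss, Msmo1, Nsdhl, Ebp and Stard4. Of all probe sets, 0.147% were. Abca1 alone among the members was called lower in all 7, as were 1.38% of all probe sets. At least 1 of the 7 comparisons with ES called 21 of the 33 members, against 14.1% of all probe sets, and 12 members were called in none of the 16 pairwise comparisons.

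The mevalonate steps open the route. Hmgcs1, which condenses acetyl-CoA units into HMG-CoA and whose promoter holds the sterol element printed above, had log2 values of 11.57 and 11.17 in ES cells. In Foxa2+ cells it stood at 12.42 and 12.25 (CD24 low, day 2), 12.40 and 12.65 (CD24 high, day 2), 12.62 and 12.50 (CD24 low, day 4) and 12.71 and 12.77 (CD24 high, day 4). In T+ cells it was 12.32 and 12.41 (CD24 low, day 2), 12.50 and 12.50 (CD24 low, day 4) and 12.53 and 12.56 (CD24 negative, day 4). Every sorted array lay above both ES arrays, and the sorted group means spanned only 0.40. The change from ES ran from 0.96 (CD24-low Foxa2+ cells of day 2, 95% interval 0.68 to 1.25) to 1.37 (CD24-high Foxa2+ cells of day 4, 1.08 to 1.65), and it was called in 5 of the 7 groups. Without ES replicate 2, 4 of those calls were lost, with changes of 0.95 in CD24-high Foxa2+ cells of day 2, 0.99 in CD24-low Foxa2+ cells of day 4, and 0.93 and 0.97 in T+ CD24-low and CD24-negative cells of day 4.

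Mvd, which decarboxylates mevalonate pyrophosphate to give the isoprenoid unit, was called higher than ES in 6 of the 7 groups. Its values were 9.32 and 9.17 in ES cells. Foxa2+ cells had 10.52 and 10.32 (CD24 low, day 2), 10.85 and 10.75 (CD24 high, day 2), 10.69 and 10.41 (CD24 low, day 4) and 10.89 and 10.73 (CD24 high, day 4). T+ cells had 10.40 and 10.09 (CD24 low, day 2), 10.89 and 10.67 (CD24 low, day 4) and 11.02 and 11.02 (CD24 negative, day 4). The T+ CD24-negative arrays were the highest of all 16, at 1.78 above ES (1.48 to 2.08, adjusted p = 3.35e-06). The group not called was T+ CD24-low of day 2, whose change of 1.00 (0.69 to 1.30) did not exceed the threshold.

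The remaining enzymes of these steps moved less. Mvk, which phosphorylates mevalonate, was called in CD24-high Foxa2+ cells of days 2 and 4 (1.15 and 1.14). Pmvk, the next kinase, was called only in CD24-high Foxa2+ cells of day 4 (1.05), a call lost without ES replicate 2 (0.96) or without replicate 1 of that group (0.95). Fdps, which builds farnesyl pyrophosphate, was between 0.57 and 0.96 above ES and called in none. Idi1, the isomerase of the isoprenoid unit, went its own way: its 14 sorted arrays ran from 11.03 to 11.88 with a median of 11.44, over ES values of 11.11 and 11.41, and its lowest group mean was that of CD24-low Foxa2+ cells of day 4. These values are of the brighter of the 2 probe sets of Idi1, and those of the other are not given here.

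From squalene on, the enzymes close the rings and trim lanosterol. Lss, which cyclises squalene epoxide into lanosterol, stood at 10.28 and 10.04 in ES cells. In Foxa2+ cells its values were 11.55 and 11.41 (CD24 low, day 2), 11.85 and 11.67 (CD24 high, day 2), 11.73 and 11.22 (CD24 low, day 4) and 11.58 and 11.64 (CD24 high, day 4). In T+ cells they were 11.26 and 11.28 (CD24 low, day 2), 11.53 and 11.38 (CD24 low, day 4) and 11.72 and 11.76 (CD24 negative, day 4). It rose in all 7 groups, from 1.11 (T+ CD24 low, day 2; 0.78 to 1.44) to 1.60 (CD24-high Foxa2+, day 2; 1.27 to 1.92). The lowest of these fell to 0.99 without ES replicate 2 and was then not called.

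Cyp51, the lanosterol demethylase, was graded among the sorted groups as well. ES cells had 10.67 and 10.36. Foxa2+ cells had 11.38 and 11.27 (CD24 low, day 2), 11.64 and 11.89 (CD24 high, day 2), 11.68 and 11.65 (CD24 low, day 4) and 12.11 and 12.11 (CD24 high, day 4). T+ cells had 11.24 and 11.23 (CD24 low, day 2), 11.47 and 11.61 (CD24 low, day 4) and 11.71 and 11.75 (CD24 negative, day 4). The gene was called higher than ES in 5 groups, with the highest change in CD24-high Foxa2+ cells of day 4 (1.59, 1.34 to 1.85, adjusted p = 1.04e-06). Without ES replicate 2 it was not called in CD24-low Foxa2+ cells of day 4 (0.99) and T+ CD24-low cells of day 4 (0.87), and the latter call was also lost without replicate 2 of that T+ group (0.96).

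Tm7sf2, a sterol reductase that acts on the product of Cyp51, had the widest spread of the enzymes. ES cells stood at 8.38 and 8.63. Foxa2+ cells stood at 9.60 and 9.48 (CD24 low, day 2), 10.05 and 10.26 (CD24 high, day 2), 10.06 and 10.08 (CD24 low, day 4) and 10.58 and 10.57 (CD24 high, day 4). T+ cells stood at 9.35 and 9.32 (CD24 low, day 2), 10.24 and 10.38 (CD24 low, day 4) and 9.99 and 10.13 (CD24 negative, day 4). Day 4 arrays of each sorted gate lay above the day 2 arrays of the same gate. The change from ES reached 2.07 in CD24-high Foxa2+ cells of day 4 (1.83 to 2.31, a 4.20-fold difference, adjusted p = 9.23e-08), and the gene was called in 6 groups. The call in CD24-low Foxa2+ cells of day 2 (1.04) was lost without ES replicate 1 (0.91) or without replicate 1 of that group (0.98).

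Msmo1, a methyl sterol oxidase, was the most even of the enzymes across sorted groups. Its ES values were 11.44 and 11.25. Foxa2+ arrays read 12.61 and 12.57 (CD24 low, day 2), 12.43 and 12.58 (CD24 high, day 2), 12.70 and 12.69 (CD24 low, day 4) and 12.70 and 12.70 (CD24 high, day 4). T+ arrays read 12.53 and 12.57 (CD24 low, day 2), 12.45 and 12.56 (CD24 low, day 4) and 12.58 and 12.62 (CD24 negative, day 4). The 7 sorted means spanned 0.19, and each was 1.16 to 1.36 above ES, with every call kept when any single array was left out.

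Nsdhl, the dehydrogenase that removes the carbon oxidised by Msmo1, followed closely. ES cells had 11.10 and 10.86. Foxa2+ cells had 12.07 and 12.03 (CD24 low, day 2), 12.03 and 12.24 (CD24 high, day 2), 12.28 and 12.33 (CD24 low, day 4) and 12.45 and 12.54 (CD24 high, day 4). T+ cells had 12.06 and 12.06 (CD24 low, day 2), 12.20 and 12.23 (CD24 low, day 4) and 12.33 and 12.42 (CD24 negative, day 4). Its changes from ES, all called, ran from 1.07 to 1.51. Without ES replicate 2 the calls in the CD24-low groups of day 2 were lost, at 0.95 for Foxa2+ and 0.96 for T+ cells.

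Ebp, the sterol isomerase that also binds emopamil, was placed differently from the other enzymes. Both ES arrays read 8.72. Foxa2+ arrays read 9.98 and 9.98 (CD24 low, day 2), 9.97 and 10.49 (CD24 high, day 2), 9.73 and 9.86 (CD24 low, day 4) and 10.63 and 10.61 (CD24 high, day 4). T+ arrays read 10.39 and 10.54 (CD24 low, day 2), 9.95 and 10.00 (CD24 low, day 4) and 9.82 and 9.88 (CD24 negative, day 4). T+ CD24-low cells of day 2, the lowest group for the mean of the enzymes, were thus second to CD24-high Foxa2+ cells of day 4 in Ebp. The changes from ES were 1.75 (1.45 to 2.05) and 1.90 (1.60 to 2.20) in these groups and lay between 1.08 and 1.51 in the others.

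Among the other late enzymes, Sqle, which makes squalene epoxide, was called in CD24-low Foxa2+ cells of day 4 (1.03) and T+ CD24-negative cells (1.06). The second of these calls was lost without replicate 2 of the T+ CD24-negative group (0.98). Hsd17b7, the ketosteroid reductase, was called in CD24-high Foxa2+ and T+ CD24-negative cells of day 4, each at 1.00 with a 95% interval of 0.62 to 1.38 and 0.63 to 1.38. Both fell to 0.87 without ES replicate 2, and to 0.92 and 0.86 without replicate 2 of their own group. Sc5d, the sterol desaturase, was called in CD24-high Foxa2+ cells of day 4 alone (1.07), a call lost without ES replicate 2 (0.91). Dhcr7, the last reductase, was called in CD24-high Foxa2+ cells of days 2 and 4 (1.04 and 1.09), the former lost without ES replicate 2 (0.98) or without replicate 2 of that group (0.96). Fdft1, which joins farnesyl units into squalene, was 0.45 to 0.80 above ES and was called in none.

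**Figure D3:**
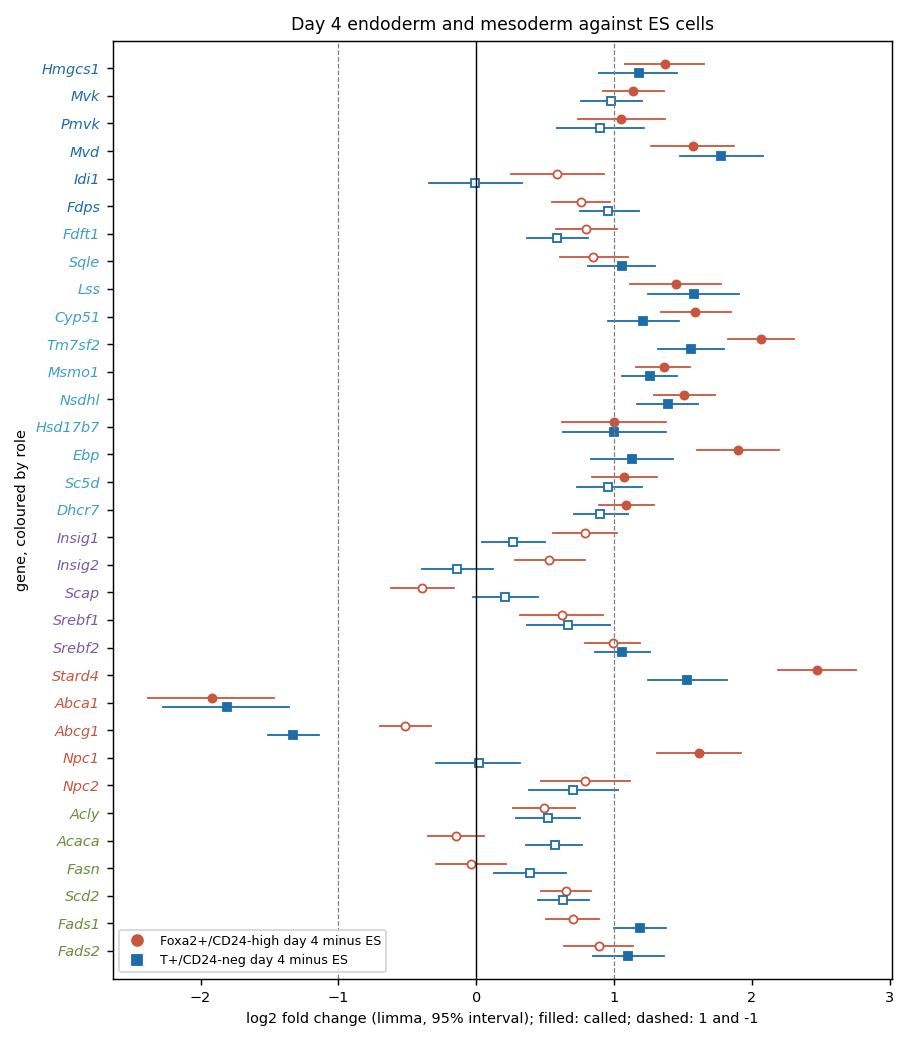
Log2 fold change from ES with 95% intervals for the 33 genes in CD24-high Foxa2+ cells of day 4 (circles) and T+ CD24-negative cells of day 4 (squares), with filled symbols for called genes and dashed lines at 1 and -1. Most enzymes lie near or above 1 in both groups, Stard4 reaches 2.47 and 1.53, and Npc1 is at 1.62 in the endoderm group and 0.02 in the mesoderm group.

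Of the regulators, Srebf2 alone was called in a comparison. Srebf2, which encodes SREBP-2, lay above both ES arrays (10.99 and 10.86) in all 14 sorted arrays, between 11.61 and 12.05. It was called in CD24-high Foxa2+ cells of day 2 (1.10, 0.90 to 1.30) and T+ CD24-negative cells of day 4 (1.06, 0.86 to 1.26), the latter lost without ES replicate 2 (0.99). Srebf1, which encodes the factor that favours fatty acid genes, was 0.38 to 0.84 above ES and was not called. Insig1, itself a target of SREBP-2 that holds the complex back, was 0.19 to 0.79 above ES and was not called. Insig2 changed by -0.14 to 0.53 and Scap by -0.39 to 0.21, and neither was called in any of the 16 comparisons.

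Sterol transport held the widest changes, in opposite directions. Stard4, a soluble carrier that moves cholesterol between membranes and whose gene is a known SREBP-2 target, had values of 8.55 and 8.79 in ES cells. Foxa2+ cells had 9.84 and 9.71 (CD24 low, day 2), 10.25 and 10.61 (CD24 high, day 2), 10.10 and 9.99 (CD24 low, day 4) and 11.13 and 11.15 (CD24 high, day 4). T+ cells had 9.79 and 9.55 (CD24 low, day 2), 10.21 and 10.18 (CD24 low, day 4) and 10.18 and 10.21 (CD24 negative, day 4). CD24-high Foxa2+ cells of day 4 stood above all other arrays, at 5.55-fold the ES level (2.47, 2.19 to 2.76, adjusted p = 8.70e-08). The calls in the CD24-low groups of day 2 were the weakest: in Foxa2+ cells 1.11 became 0.99 without ES replicate 1, and in T+ cells 1.00 became 0.88 without ES replicate 1 or without replicate 1 of that group.

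Abca1, which exports cholesterol to apolipoprotein A-I, went the other way. Its ES values were 8.27 and 9.08, the widest replicate gap of any member. Foxa2+ cells had 6.42 and 6.44 (CD24 low, day 2), 6.51 and 6.84 (CD24 high, day 2), 6.44 and 6.59 (CD24 low, day 4) and 6.80 and 6.70 (CD24 high, day 4). T+ cells had 6.57 and 6.78 (CD24 low, day 2), 7.19 and 7.15 (CD24 low, day 4) and 6.79 and 6.93 (CD24 negative, day 4). The gene fell in all 7 sorted groups, by 1.50 (T+ CD24 low, day 4; -1.96 to -1.05) to 2.25 (CD24-low Foxa2+, day 2; -2.70 to -1.79) on the log2 scale, and every call was kept with any single array left out. The lower ES array for Abca1 was the one with the higher fibroblast sum, and the part of feeder cells in the Abca1 difference was not tested.

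Abcg1, which passes cholesterol on to lipoprotein particles, was lower than ES at the adjusted p in 6 of the 7 groups and past the fold threshold in 4. ES cells had 9.15 and 9.10. Foxa2+ cells had 7.86 and 7.82 (CD24 low, day 2), 7.98 and 8.10 (CD24 high, day 2), 8.18 and 8.17 (CD24 low, day 4) and 8.62 and 8.59 (CD24 high, day 4). T+ cells had 7.76 and 7.69 (CD24 low, day 2), 8.99 and 9.16 (CD24 low, day 4) and 7.77 and 7.83 (CD24 negative, day 4). It was called lower than ES in the 3 groups of day 2 (by -1.29, -1.09 and -1.40 in CD24-low Foxa2+, CD24-high Foxa2+ and T+ CD24-low cells) and in T+ CD24-negative cells of day 4 (-1.33). In CD24-low and CD24-high Foxa2+ cells of day 4 the differences were -0.95 (-1.14 to -0.76, adjusted p = 1.44e-05) and -0.52 (-0.70 to -0.33, adjusted p = 0.000613), within the fold threshold. In T+ CD24-low cells of day 4 the difference from ES was -0.05 (-0.24 to 0.13).

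Npc1, the membrane protein that takes cholesterol out of the lysosome, was highest in the CD24-high Foxa2+ groups. ES cells had 10.85 and 10.72. Foxa2+ cells had 11.25 and 10.78 (CD24 low, day 2), 11.93 and 12.12 (CD24 high, day 2), 11.32 and 11.33 (CD24 low, day 4) and 12.32 and 12.47 (CD24 high, day 4). T+ cells had 10.85 and 10.77 (CD24 low, day 2), 11.33 and 11.47 (CD24 low, day 4) and 10.75 and 10.85 (CD24 negative, day 4). The 4 CD24-high arrays lay above the other 12. The arrays of CD24-low Foxa2+ cells and of T+ CD24-low cells of day 4 also lay above both ES arrays, at 11.32 to 11.47. The gene was called higher than ES in the CD24-high groups alone (1.25 on day 2 and 1.62 on day 4). Npc2, its soluble partner in the lysosome, was 0.20 to 0.79 above ES and was not called.

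**Figure D4:**
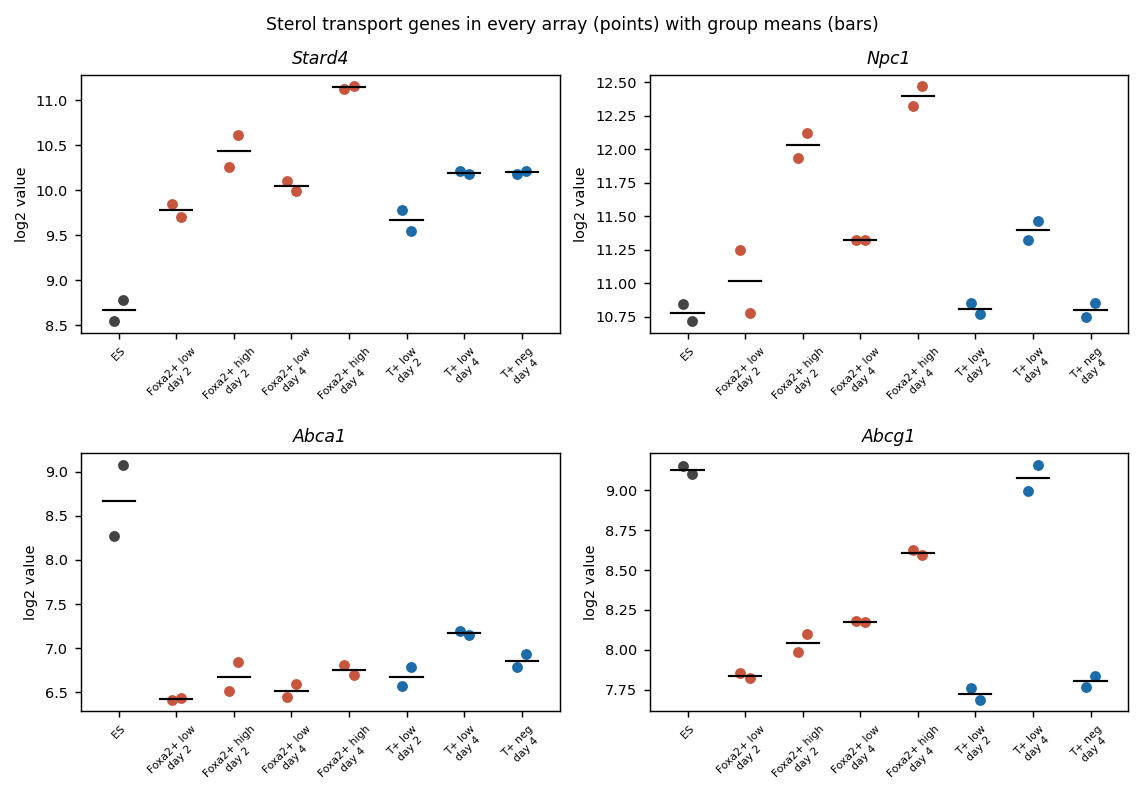
Log2 values of Stard4, Npc1, Abca1 and Abcg1 in every array (points, 2 per group; grey ES, red Foxa2+, blue T+) with group means as bars, each panel on its own axis. Stard4 and Npc1 peak in CD24-high Foxa2+ cells of day 4 (11.13 to 11.15 and 12.32 to 12.47), Abca1 is above 8 only in ES cells, and Abcg1 is above 8.9 only in ES cells and T+ CD24-low cells of day 4.

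Fatty acid genes changed less than the sterol enzymes. Fads1, the delta-5 desaturase of long polyunsaturated chains, had ES values of 11.26 and 11.13. Foxa2+ cells had 12.09 and 12.08 (CD24 low, day 2), 11.77 and 11.94 (CD24 high, day 2), 12.33 and 12.41 (CD24 low, day 4) and 11.89 and 11.90 (CD24 high, day 4). T+ cells had 11.92 and 11.87 (CD24 low, day 2), 12.32 and 12.28 (CD24 low, day 4) and 12.42 and 12.36 (CD24 negative, day 4). It was called in CD24-low Foxa2+, T+ CD24-low and T+ CD24-negative cells of day 4 (1.17, 1.10 and 1.19). CD24-high Foxa2+ cells of day 4 (0.70, 0.51 to 0.89) were thus not among the highest groups here.

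Fads2, the delta-6 desaturase, read 11.66 and 11.25 in ES cells. Foxa2+ cells read 12.32 and 12.43 (CD24 low, day 2), 12.35 and 12.34 (CD24 high, day 2), 12.66 and 12.63 (CD24 low, day 4) and 12.35 and 12.34 (CD24 high, day 4). T+ cells read 12.43 and 12.40 (CD24 low, day 2), 12.56 and 12.47 (CD24 low, day 4) and 12.59 and 12.52 (CD24 negative, day 4). The same 3 groups of day 4 were called as for Fads1 (1.19, 1.07 and 1.10), but without ES replicate 2 the changes were 0.99, 0.86 and 0.90 and none was. Scd2, a stearoyl-CoA desaturase, was 0.54 to 0.78 above ES in all groups and was not called. Acly, Acaca and Fasn, the steps from citrate to palmitate, changed by 0.07 to 0.52, -0.15 to 0.57 and -0.04 to 0.39, and none of the 3 was called in any comparison.

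Among the sorted groups few members were called. At least 1 of the 9 pairwise comparisons called 3 of 33 members (Stard4, Abcg1 and Npc1), against 9.82% of all probe sets, a share close to the background. The enzymes were called in none of the 9 by limma, and their median differences lay between -0.01 and 0.26. An unadjusted limma p below 0.05 was found for 1 to 9 of the 17, and for 8.12% to 30.1% of all probe sets. The count of 9 was that of T+ CD24-low cells between days, where 18.8% of all probe sets had such a p. CD24-high against CD24-low cells asks which genes mark the step to definitive endoderm. Of the members, 1 was called on day 2, against 2.80% of all probe sets, and 2 on day 4, against 4.80%. Npc1 was higher in CD24-high cells by 1.01 on day 2 (0.71 to 1.32, adjusted p = 0.000618) and by 1.07 on day 4 (0.77 to 1.38, adjusted p = 0.000202). The day 2 call was lost without replicate 2 of the CD24-high group (0.92) or of the CD24-low group (0.78), and the day 4 call without replicate 2 of the CD24-high group (1.00). When only the arrays of these groups were fitted, the day 2 difference had an adjusted p of 0.0699 and was not called. Stard4 was higher by 1.09 on day 4 (0.81 to 1.38, adjusted p = 0.000103) and by 0.65 on day 2 (0.37 to 0.94), where it was not called.

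At the adjusted p alone the gate comparison of day 4 separated 12 members (10 higher and 2 lower in CD24-high cells), where 7.67% of all probe sets were higher and 9.05% lower. Of the 17 enzymes 5 were higher, with Ebp (0.82, 0.52 to 1.12) and Idi1 (0.68, 0.34 to 1.01) at the top and then Hsd17b7 (0.60), Tm7sf2 (0.50) and Cyp51 (0.44). Insig1 was 0.60 higher (0.37 to 0.82). The 2 lower members were Fads1 (-0.47, -0.66 to -0.28) and Scap (-0.36, -0.59 to -0.13). On day 2 the same rule separated 5 members, all higher (3.76% of all probe sets), including Tm7sf2 (0.61) and Cyp51 (0.44). No member was called in the contrast of the gate difference of day 4 with that of day 2, against 0.731% of all probe sets, though 5 of 33 had an unadjusted limma p below 0.05 (11.1% of all probe sets). These 5 were Ebp (0.57, 0.15 to 1.00), Insig2 (0.50, 0.14 to 0.86), Stard4 (0.44, 0.04 to 0.84), Insig1 (0.36, 0.04 to 0.69) and Acaca (-0.36, -0.66 to -0.07), with adjusted p of 0.261, 0.242, 0.389, 0.367 and 0.306. Markers of visceral endoderm, an extra-embryonic tissue that also secretes lipoproteins, had a higher summed signal in the CD24-high cells of day 4. The sum over 13 of 14 of them was 9851 and 9719, against 2102 and 2495 in CD24-low cells. Of the 13, 3 were called, all higher, namely Apoa1 (3.29), Hnf4a (3.01) and Rbp4 (2.14), against 4.80% of all probe sets. The median difference of the 13 was 0.47, and 3 of them lay below 0. On day 2 the sums overlapped (1922 and 4020 in CD24-high, 4359 and 3591 in CD24-low cells), and their part in the day 4 differences was not tested.

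**Figure D5:**
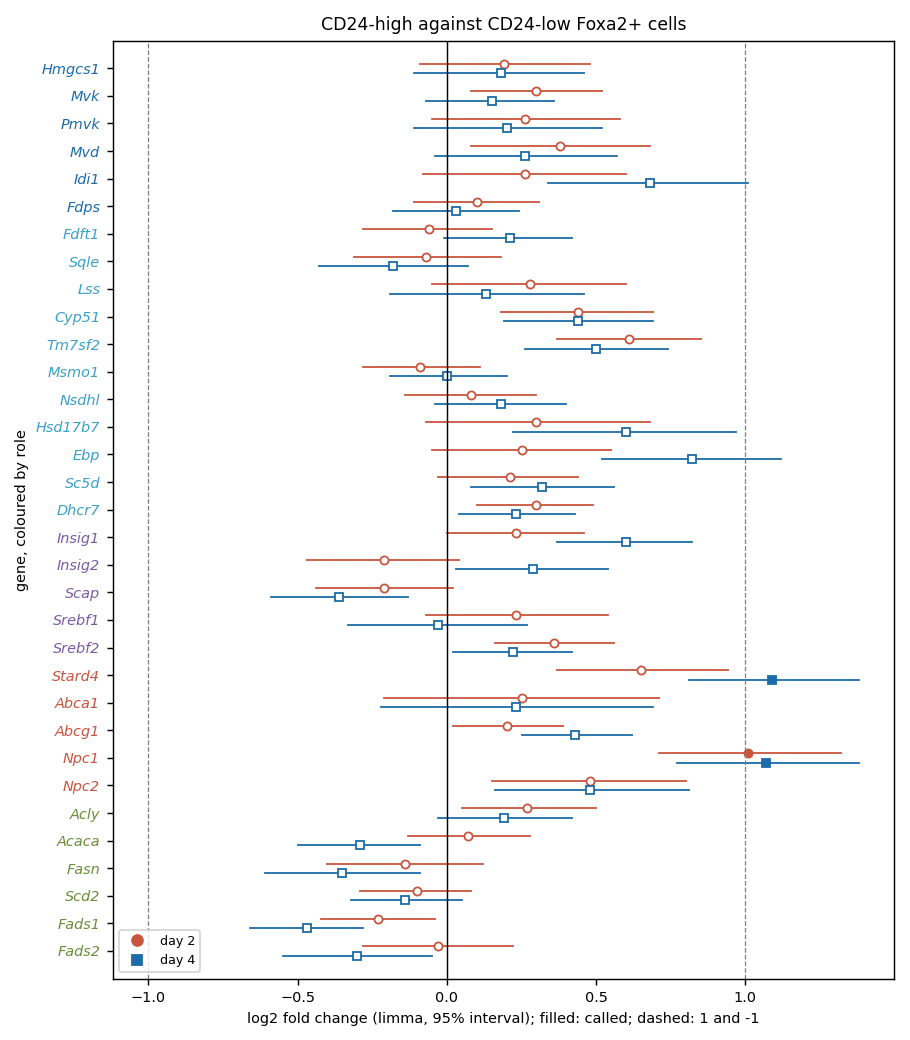
Log2 fold change of CD24-high over CD24-low Foxa2+ cells with 95% intervals for the 33 genes on day 2 (circles) and day 4 (squares), with filled symbols for called genes and dashed lines at 1 and -1. Npc1 is called on both days (1.01 and 1.07) and Stard4 on day 4 (1.09), while most enzymes lie between 0 and 0.5.

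The comparison of Foxa2+ with T+ cells of the same CD24-low gate asks which genes separate early endoderm from early mesoderm. On day 2 no member was called by limma, against 0.903% of all probe sets, and 4 of 33 had an unadjusted p below 0.05 (11.2% of all probe sets). The widest difference of the enzymes was Ebp, lower in Foxa2+ cells by -0.49 (-0.79 to -0.19, adjusted p = 0.113). On day 4 no member was called either, against 3.08% of all probe sets, and 6 of 33 had an unadjusted p below 0.05 (18.9%). Abcg1 alone passed the adjusted p, with a difference of -0.90 (-1.08 to -0.71, adjusted p = 2.84e-05), where 4.27% of all probe sets were lower. The median difference of the 17 enzymes was 0.08 on day 2 and -0.01 on day 4. That Abcg1 changed with the day was tested as a contrast of the day 4 with the day 2 difference, which gave -1.01 (-1.28 to -0.75, adjusted p = 0.00102), the only member of 33 called there, against 1.38% of all probe sets. This contrast no longer exceeded the fold threshold without replicate 1 of CD24-low Foxa2+ cells of day 2 (-1 after rounding), replicate 2 of T+ CD24-low cells of day 2 (-0.98) or replicate 2 of T+ CD24-low cells of day 4 (-0.93).

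Of the T+ groups, the CD24-low cells of day 4 had the highest Abcg1. The CD24-low and CD24-negative cells of day 4 are fractions of the same day, so no order in time was measured between them. Abcg1 rose by 1.35 from day 2 to day 4 in CD24-low cells (1.17 to 1.54, adjusted p = 4.84e-06), the only member of 33 called there, against 1.79% of all probe sets. It was lower by -1.27 in CD24-negative than in CD24-low cells of day 4 (-1.46 to -1.09, adjusted p = 2.26e-05), again the only member called, against 1.10%. Npc1 was also highest in the CD24-low cells of day 4 among the T+ groups, but was called in neither comparison. Its group means were 10.81 (CD24 low, day 2), 11.40 (CD24 low, day 4) and 10.80 (CD24 negative, day 4). Of the 13 fibroblast markers tested, Acta2, which also marks smooth muscle, was the only one called in these comparisons. Acta2 moved with Abcg1, by 2.03 from day 2 to day 4 in CD24-low T+ cells and by -1.06 in CD24-negative against CD24-low cells. The medians over the 13 markers were 0.16 and 0.02, and the relation of Acta2 to Abcg1 was not tested. At the adjusted p alone, 6 members were higher on day 4 than on day 2 in T+ CD24-low cells (3.46% of all probe sets), among them Tm7sf2 (0.97, 0.73 to 1.21) and Mvd (0.54, 0.24 to 0.84). In the Foxa2+ cells no member was called between days, against 0.294% of all probe sets in CD24-low and 1.38% in CD24-high cells, while 9 and 11 of 33 had an unadjusted limma p below 0.05 (8.12% and 20.3%). In the CD24-high cells 4 passed the adjusted p alone, all higher on day 4 (3.62% of all probe sets), and these were Stard4 (0.71), Abcg1 (0.57), Insig2 (0.50) and Tm7sf2 (0.42).

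Definitive endoderm and mesoderm of day 4 (CD24-high Foxa2+ against T+ CD24-negative cells) differed in 1 called member, against 5.88% of all probe sets. Npc1 was higher in endoderm by 1.60 (1.29 to 1.90, adjusted p = 6.29e-06), or 3.02-fold. At the adjusted p alone 9 members were higher in endoderm (8.92% of all probe sets) and 4 lower (11.7%). The higher ones included Stard4 (0.94, 0.66 to 1.22), Abcg1 (0.81, 0.62 to 0.99), Ebp (0.77, 0.47 to 1.07) and Insig2 (0.67, 0.42 to 0.92). The 4 lower ones were Scap and 3 of the 6 fatty acid genes, namely Acaca (-0.72, -0.92 to -0.51), Scap (-0.60, -0.83 to -0.37), Fads1 (-0.49, -0.68 to -0.30) and Fasn (-0.43, -0.69 to -0.17). The 17 enzymes had a median difference of 0.15, and 4 of them passed the adjusted p, all higher in endoderm. The summed visceral endoderm markers moved with this comparison too, at 9851 and 9719 in endoderm and 2213 and 2004 in mesoderm, with 3 of 13 called higher (Apoa1 4.26, Hnf4a 3.86 and Rbp4 2.35) and 1, Sox7, lower (-1.56), and their part in these differences was not tested.

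Which members shared the course of the enzymes was described by Pearson's r of each with the mean of the enzymes over the 16 arrays, the member itself left out. These arrays share the line, the groups and the normalisation, so r is a description only. Highest were Hmgcs1, Nsdhl and Dhcr7 at 0.98, and the median over the 17 enzymes was 0.93. Of the other roles, Srebf2 (0.95) and Stard4 (0.93) were most like the enzymes, while Abca1 was at -0.81, Abcg1 at -0.40 and Scap at -0.22. Over the 14 sorted arrays alone the median over the enzymes was 0.78, with Cyp51 at 0.95, Stard4 at 0.94, Sc5d at 0.92 and Hmgcs1 at 0.91. Ebp, Sqle and Fads1 were less like the enzymes there (0.17, 0.32 and -0.01, against 0.81, 0.89 and 0.76 over all 16), and Abca1 turned from -0.81 to 0.37.

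A wider list held 69 other genes of the same pathways, and 58 were measured. In CD24-high Foxa2+ cells of day 4 against ES, 10 of the 58 were called (7 higher and 3 lower, with a median change of 0.21), against 8.76% of all probe sets. Against the CD24-low cells of the same day 6 were called (5 higher and 1 lower), against 4.80%. Highest were Mylip (1.95), the ubiquitin ligase that degrades lipoprotein receptors, Apob (1.38), the structural protein of low-density lipoprotein, and Elovl1 (1.25), an elongase of very long fatty acids. The 1 lower gene was Lrp2 (-3.10), a large endocytic receptor. Against T+ CD24-negative cells 5 of the 58 were called, against 5.88% of all probe sets. Apob (2.63) and Mylip (1.57) were higher. Lower were Lrp1 (-1.90), a receptor for remnant lipoproteins, Lpin1 (-1.36), a phosphatidate phosphatase, and Prkaa2 (-1.11), a catalytic subunit of AMP-activated kinase. Between CD24-low Foxa2+ and T+ cells of day 4, Lrp2 (1.50), Apob (1.40) and Acsl4 (1.10), an acyl-CoA synthetase, were higher and Prkaa2 (-1.25) was lower, making 4 of 58 called, against 3.08%. Of the 11 wider genes of sterol synthesis limma called 0 in each of these comparisons among sorted cells. An unadjusted limma p below 0.05 was found for 4, 5 and 3 of them, and for 27%, 30.1% and 18.9% of all probe sets. Against ES, limma called 0 and 1 of these 11 in CD24-low and CD24-high Foxa2+ cells of day 2. The same gates had 1 each on day 4. T+ CD24-low cells of days 2 and 4 had 0 and 2, T+ CD24-negative cells had 2, and every call was higher. The medians of the 11 lay between 0.18 and 0.56, below those of the measured enzymes of the main list (0.72 to 1.15). Of all 58 wider genes 3 to 10 were called against ES, where 3.64% to 8.76% of all probe sets were.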

How the data were processed

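The deposited values are log2 expression values per probe set, which the authors made from Mouse Gene ST arrays (Affymetrix) by robust multi-array averaging (RMA, background correction, quantile normalisation and summarisation) with the R package oligo 1.48.0, per the labels' processing notes. Quantile normalisation gives all arrays a like distribution, so that a shift common to all genes cannot be seen. RMA also compresses fold changes of dim probe sets. Depth does not apply to arrays, and 2 replicates per group limit the precision.

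From these values the 32000 of 35556 probe sets with the highest mean were kept, as the study's methods do, and fitted in limma 3.58.1 (R 4.3.3) as 8 group means under a common variance estimate, followed by eBayes without trend or robust estimation. The 16 pairwise comparisons, 2 contrasts of contrasts and an F-test were adjusted by Benjamini-Hochberg over all 32000. Genes were called at an adjusted p below 0.05 where the log2 fold change also exceeded 1 in size. Genes were named from the platform annotation: of the kept probe sets 20427 had 1 symbol, 1400 several and 10173 none, and all 33 members matched RefSeq by Entrez number with 0 changed symbols. Where probe sets shared a gene, the brightest on average stood for it (3 members had 2). Log2 values of different probe sets are not compared with each other. Replicates are labelled biological, and the labels give no batch.

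Members called in 3 or more of the 16 comparisons, or in a contrast of contrasts, are given by array, and the rest by range, counts and the values of those called in 1 or 2. In the wider list at most the 3 highest and 3 lowest called genes are named in each of the 3 comparisons among cells of day 4. The members and lists were chosen with earlier results of these data known. The scripts were tested on simulated data. Alternatives were the probe sets kept, the spread estimate, the replicate number as a block, median centring, the adjusted p alone, the mean of a gene's probe sets, only the groups compared, and each array left out.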

Additional observations from a re-analysis of the deposited data

Results flagged for a closer look

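Abcg1, the pump that hands cholesterol to lipoprotein particles, had a difference between CD24-low Foxa2+ and T+ cells that changed with the day. It was 0.11 on day 2 (Foxa2+ 7.86 and 7.82, T+ 7.76 and 7.69) and -0.90 on day 4 (Foxa2+ 8.18 and 8.17, T+ 8.99 and 9.16), and the contrast of the 2 differences was -1.01 (limma, adjusted p = 0.00102). All 4 day 4 arrays stood above all 4 day 2 arrays, and the T+ arrays of day 4 were the higher ones. Acta2, a marker of smooth muscle and fibroblasts, moved in the same contrast by -2.10. It was the only one of 13 fibroblast markers called there, against 1.38% of all probe sets, and the median over the 13 was -0.09. The part of Acta2 in the change of Abcg1 was not tested.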

How the results depend on the processing

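Over all contrasts 95 member calls were made, and none changed direction under any alternative. Of these, 70 were kept with every single array left out and 25 were lost with some array, all of them with a change under 1.2 in size. Leaving out ES replicate 2 lost 18 of the 88 calls made against ES and leaving out ES replicate 1 lost 3. The lost calls are given beside each gene. The counts of members called with an array left out ranged from 8 to 10 in CD24-low Foxa2+ cells of day 2 against ES, 13 to 17 in CD24-high Foxa2+ cells of day 2, 10 to 14 in CD24-low Foxa2+ cells of day 4, 13 to 19 in CD24-high Foxa2+ cells of day 4, 5 to 9 and 9 to 13 in T+ CD24-low cells of days 2 and 4, and 13 to 18 in T+ CD24-negative cells. Among sorted groups they ranged from 0 to 1 (gate, day 2), 1 to 2 (gate, day 4), 1 to 2 (T+ CD24-low cells, day 4 against day 2) and 0 to 1 (lineage by day), and from 31 to 33 for the F-test, and did not move in the others.

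With the adjusted p alone, the counts against ES were 24 and 30 in CD24-low and CD24-high Foxa2+ cells of day 2, 24 and 31 on day 4, 23 and 27 in T+ CD24-low cells of days 2 and 4, and 28 in T+ CD24-negative cells, where 14.9% to 30.3% of all probe sets passed. Among sorted groups they were 5 and 12 for the gate on days 2 and 4 (9.32% and 16.7% of all probe sets), 1 for CD24-low Foxa2+ against T+ cells of day 4 (9.02%), 13 for endoderm against mesoderm of day 4 (20.6%), 2 for CD24-negative against CD24-low T+ cells (3.58%), 4 for CD24-high Foxa2+ cells between days (6.57%) and 6 for T+ CD24-low cells between days (6.51%). Fitting only the groups compared gave 0 in place of 1 for the gate on day 2. The median r of the enzymes without the ES arrays was 0.78. With each array centred on its median, Stard4 in T+ CD24-low cells of day 2 (0.99) and Hsd17b7 in T+ CD24-negative cells (0.98) were not called against ES. Other alternatives lost no call, except that Abca1 was not among the 16000 brightest probe sets.

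Over 28 pairs of groups the deviations of arrays with the same replicate number correlated at -0.20 to 0.25 (median 0.04), with 8 over 0.1. Most of these pairs join groups of different days or media, and the pairs of CD24 fractions of the same day and medium were not read apart. The pooled range therefore does not show whether CD24 fractions of the same culture share a replicate number. With the number as a block the counts of members called against ES were 9, 15, 13, 16, 7, 12 and 16, as without it, and no call changed. That block is a single effect common to all groups, so it does not represent pairing within a culture. Signal over background cannot be read from these values, and 2 replicates per group limit how small a difference can be told.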
